A study of Mus musculus with 36 samples.

Results

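The late responses of LPS-activated BV-2 microglia to cannabidiol (CBD) and to dimethyl fumarate (DMF) were compared directly, across all genes, 24 h after treatment. The libraries were the 3 labelled LPS with CBD and the 3 labelled LPS with DMF at that time, 6 of the 36 libraries of the series, which holds 12 groups of 3. The table of this pair listed 17778 genes, of which 11740 had a normalised count of at least 10 in at least 3 of the 6 libraries and were tested. The study compared CBD, DMF and monomethyl fumarate, the last not described here, in activated microglia, DMF being a medicine for multiple sclerosis.

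BV-2 is an immortalised murine microglial line, so that every library came from 1 line that divides in culture and does not stand for microglia of a brain. All 6 cultures received lipopolysaccharide (LPS) at 600 ng/mL in medium with reduced serum, and all contained a vehicle at 0.2%. The CBD group received 6 µM CBD dissolved in ethanol (EtOH), and the DMF group received 30 µM DMF dissolved in dimethyl sulfoxide (DMSO). Drug, dose and vehicle therefore changed together between the groups and cannot be told apart. Other groups used beside them were LPS alone at 24 h (3 libraries), the vehicles DMSO and EtOH without LPS at 24 h (3 each, numbered 4 to 6), and both drugs with LPS at 4 h (3 each). LPS with 30 µM monomethyl fumarate at 24 h (3 libraries) entered the fit of all 18 libraries of 24 h and the scale for levels across groups. Values are normalised counts, that is, reads per gene divided by the scaling factor of the library. In bulk RNA, fewer cells that express a gene and less RNA per cell cannot be told apart.

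The 6 libraries held 15100758 to 22774814 reads on genes, with 14985 to 15506 genes detected. Mitochondrially encoded genes took 1.25 to 1.4% of reads with CBD and 2.06 to 2.24% with DMF, without overlap, and the part of this difference in the results was not tested. Markers are counted where a library held 10 or more. All 8 microglia or macrophage markers reached this level, with summed levels of 41532 to 53442 with CBD and 47737 to 57089 with DMF. Among the markers of other cell types, Snap25 and Syt1 (neuron), Aqp4 (astrocyte), Mog and Olig1 (oligodendrocyte), Cd3g (lymphocyte), and Pdgfra and Cldn5 (fibroblast or endothelial cell) were at 0 in all 6 libraries. Summed levels were 14.7 to 25.9 against 14.1 to 25.2 for 6 neuronal markers (1 at this level) and 9.80 to 17.5 against 5.97 to 17.5 for 5 astrocyte markers (1 at this level), with CBD and DMF in turn. Higher sums with DMF than with CBD, without overlap, were seen for 6 lymphocyte markers (11.6 to 18.6 against 19.6 to 23.9, 1 at this level), 5 oligodendrocyte markers (773 to 957 against 1196 to 1313, 3 at this level, mostly Mbp), 5 granulocyte markers (23 to 27.4 against 32.1 to 43.0, 3 at this level) and 6 fibroblast or endothelial markers (61.6 to 78.9 against 95.6 to 154, 2 at this level), and their part in the results was not tested.

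LPS is a component of the outer membrane of Gram-negative bacteria that Toll-like receptor 4 senses, which turns on NF-kB-driven cytokine and chemokine genes and, through secreted type I interferon, the interferon-stimulated genes. DMF is an electrophile that modifies the sensor Keap1 and frees the transcription factor Nrf2, which drives genes of glutathione synthesis, thioredoxin recycling, NADPH supply and heme breakdown. CBD is a lipophilic cannabinoid of Cannabis sativa with anti-inflammatory and antioxidant activity in culture. Lysosomal genes share a promoter element of the transcription factors TFEB, TFE3 and MITF, interferon-stimulated genes an element of the ISGF3 and IRF factors, and metallothionein genes an element of the zinc-sensing factor MTF1.

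Promoter windows with 3 such elements are shown here for members of the lysosomal, interferon-stimulated, GTPase and metal gene lists described below. In RefSeq promoters of GRCm38.p6, available for 9272 of the 11740 genes tested and for 361 of 471 list members tested, the 250 bases before each start were searched on both strands. The core of the lysosomal (CLEAR) element, TCACGTGA, was found in 5 of 23 lysosomal genes (21.7%) and in 1.86% of all promoters searched. The windows of these 5 genes are printed 5′ to 3′ on the strand of the gene, with the core in capitals.
Gla, chrX:134601169-134601224, minus strand: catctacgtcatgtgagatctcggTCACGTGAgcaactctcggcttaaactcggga
Ctsd, chr7:142387895-142387950, minus strand: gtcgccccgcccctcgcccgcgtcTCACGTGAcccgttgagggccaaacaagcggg
Atp6v1a, chr16:44139360-44139415, minus strand: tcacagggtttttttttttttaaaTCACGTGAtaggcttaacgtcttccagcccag
Ctsa, chr2:164833736-164833772, plus strand: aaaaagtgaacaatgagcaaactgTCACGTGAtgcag
Mcoln1, chr8:3500449-3500504, plus strand: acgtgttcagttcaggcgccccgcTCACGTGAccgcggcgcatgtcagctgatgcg

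The core of the interferon response element, GAAANNGAA or its reverse complement, was found in 11 of 21 interferon-stimulated genes (52.4%) and in 8 of 8 guanylate-binding and immunity-related GTPase genes (100%), against 7.66% of all promoters. In the 6 windows below every match is in capitals, and matches that overlap run together.
Rsad2, chr12:26456539-26456595, minus strand: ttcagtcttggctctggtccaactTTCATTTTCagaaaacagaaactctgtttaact
Cxcl10, chr5:92349070-92349126, minus strand: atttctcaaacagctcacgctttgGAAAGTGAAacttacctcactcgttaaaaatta
Oas1a, chr5:120907526-120907563, minus strand: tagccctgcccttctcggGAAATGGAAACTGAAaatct
Isg15, chr4:156200852-156200908, minus strand: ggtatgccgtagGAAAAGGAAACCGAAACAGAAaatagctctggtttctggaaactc
Gbp5, chr3:142496746-142496802, plus strand: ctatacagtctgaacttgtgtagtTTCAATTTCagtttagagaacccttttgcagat
Irgm1, chr11:48871421-48871468, minus strand: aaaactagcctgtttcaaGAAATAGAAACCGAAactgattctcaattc

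The core of the metal response element, TGCACNC or TGCGCNC, was found in 4 of 7 zinc and metal genes (57.1%) and in 33.6% of all promoters, so that it is common at this length. Capitals mark the core in the promoters of a metallothionein and of the zinc exporter gene Slc30a1. The core of the antioxidant response element, TGACNNNGC, was found in 4 of 19 Nrf2 target genes (21.1%) against 13.9% of all promoters, and that of the sterol response element, TCACNCCAC, in 1 of 17 sterol genes (5.88%, Hmgcs1) against 1.21%. A match describes the letters of the window and is neither a bound site nor a cause.
Mt1, chr8:94179056-94179082, plus strand: ggtcccgctgTGCACACtggcgctcca
Slc30a1, chr1:191906728-191906754, plus strand: cgggggttccGAGTGCAaagcaaagtt

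CBD and DMF differed in 4523 of the 11740 genes tested at 24 h (38.5%), 2269 of them higher with CBD (19.3%) and 2254 higher with DMF (19.2%; limma, adjusted p below 0.05). In 6173 genes every library of one drug lay beyond every library of the other (52.6%). Most of these differences were small, the median absolute log2 fold change of the called genes being 0.53. A log2 fold change above 1 was reached by 433 called genes higher with CBD and 395 higher with DMF, one above 2 by 85 and 64, and one above 3 by 16 and 13. The fit with the replicate number as a block called 5579 genes. Fold changes are on the scale of log2(normalised count + 1), which understates the change of genes with few reads, and the median over all genes tested was -0.00017. The shares of all genes called higher (19.3%) and lower (19.2%) are those beside which the counts of each list stand.

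**Figure D1:**
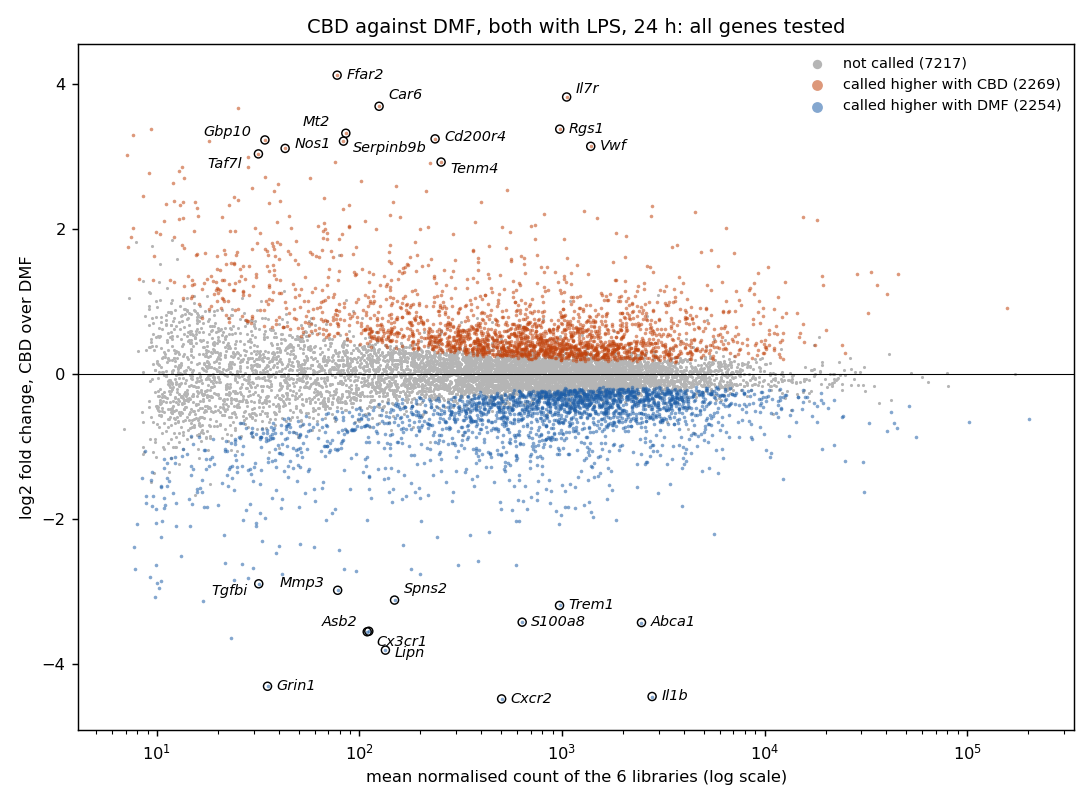
Log2 fold change of CBD over DMF at 24 h (vertical axis) against the mean normalised count of the 6 libraries (horizontal axis, log scale) for the 11740 genes tested; orange points were called higher with CBD, blue points higher with DMF and grey points were not called. The 24 genes with the largest changes by the naming rule are circled, from Ffar2 (4.12) at the top to Cxcr2 (-4.48) at the bottom.

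The genes furthest above DMF with CBD coded for receptors, a metallothionein, a guanylate-binding protein and secreted proteins. Ffar2 (ENSMUSG00000051314), a receptor for short-chain fatty acids, had 97.5, 129 and 215 with CBD and 3.28, 10.8 and 9.41 with DMF (17.4-fold, log2 fold change 4.12, SE 0.42, adjusted p 0.000129). Il7r, the interleukin-7 receptor chain, had 2004, 1657 and 2249 with CBD and 148, 152 and 115 with DMF (14.2-fold, log2 fold change 3.82, SE 0.14, adjusted p 2.02e-06). Both genes were low or moderate in every DMF library and far above that in every CBD library. Rgs1, a regulator of G-protein signalling that dampens chemokine receptors, had 1986, 1111 and 2256 with CBD and 174, 137 and 182 with DMF (10.4-fold, log2 fold change 3.38, SE 0.23, adjusted p 2.06e-05). Vwf, coding for von Willebrand factor, had 2582, 1900.2 and 3003 with CBD and 289.9, 271 and 269.7 with DMF (8.83-fold, log2 fold change 3.14, SE 0.15, adjusted p 5.28e-06). Mt2, a metallothionein, had 95.3, 175 and 201 with CBD and 14.2, 13.1 and 14.9 with DMF (10.0-fold, log2 fold change 3.32, SE 0.28, adjusted p 4.73e-05). The remaining 7 of the 12 genes were Car6 (3.69), Cd200r4 (3.25), Gbp10 (3.23), Serpinb9b (3.21), Nos1 (3.11), Taf7l (3.04) and Tenm4 (2.93). Gbp10, Serpinb9b and Cd200r4 belong to families of near-identical genes between which reads can be split, so their own values are uncertain.

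On the side of DMF stood the chemokine receptors Cxcr2 and Cx3cr1, interleukin-1β and the cholesterol exporter Abca1. Cxcr2 (ENSMUSG00000026180), the receptor for neutrophil-attracting chemokines, had 42.7, 62.7 and 27.7 with CBD and 890.5, 1078 and 919 with DMF (22.3-fold higher with DMF, log2 fold change -4.48, SE 0.25, adjusted p 8.04e-06). Il1b (ENSMUSG00000027398), coding for interleukin-1β, had 191, 466 and 147 with CBD and 3663, 6058 and 6182 with DMF (21.8-fold higher with DMF, log2 fold change -4.45, SE 0.37, adjusted p 4.85e-05). Abca1, which exports cholesterol to lipoproteins, had 367, 635 and 311 with CBD and 4177, 4784 and 4534 with DMF (10.7-fold higher with DMF, log2 fold change -3.43, SE 0.22, adjusted p 1.31e-05). In all 3 genes the highest CBD library stayed far below the lowest DMF library. Trem1, a receptor that amplifies inflammatory signals, had 192, 317 and 109 with CBD and 1412, 1986 and 1817 with DMF (-3.19), and S100a8, a subunit of the alarmin calprotectin, had 111, 102 and 94.6 with CBD and 701, 1634 and 1171 with DMF (-3.42). Cx3cr1, the fractalkine receptor that marks microglia, had 12.1, 34.3 and 9.82 with CBD and 201, 210.3 and 187 with DMF (log2 fold change -3.55, SE 0.38, adjusted p 0.000169). The other 6 were Grin1 (-4.30), Lipn (-3.81), Asb2 (-3.54), Spns2 (-3.12), Mmp3 (-2.98) and Tgfbi (-2.89), and Grin1 had no more than 5.88 in any CBD library, so its fold change depends on the pseudocount. Each call held in every alternative fit in which the gene was tested, 397 in all, and all 24 held with the difference between the vehicles subtracted. The genes were chosen for large changes without overlap in these same libraries, so that such calls were favoured by the choice. Nos1 and Grin1 were below a count of 10 in every library of their lower group. Ffar2, Car6, Gbp10, Taf7l, Cx3cr1, Asb2 and Tgfbi were below it in part of theirs. All of these genes reached the count filter only with the libraries of the group where they were higher. Their fold changes depend on the pseudocount as well. Gbp10, Nos1, Taf7l, Grin1 and Tgfbi were not tested at a mean of at least 50, nor Nos1 and Grin1 without some of the libraries.

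**Figure D2:**
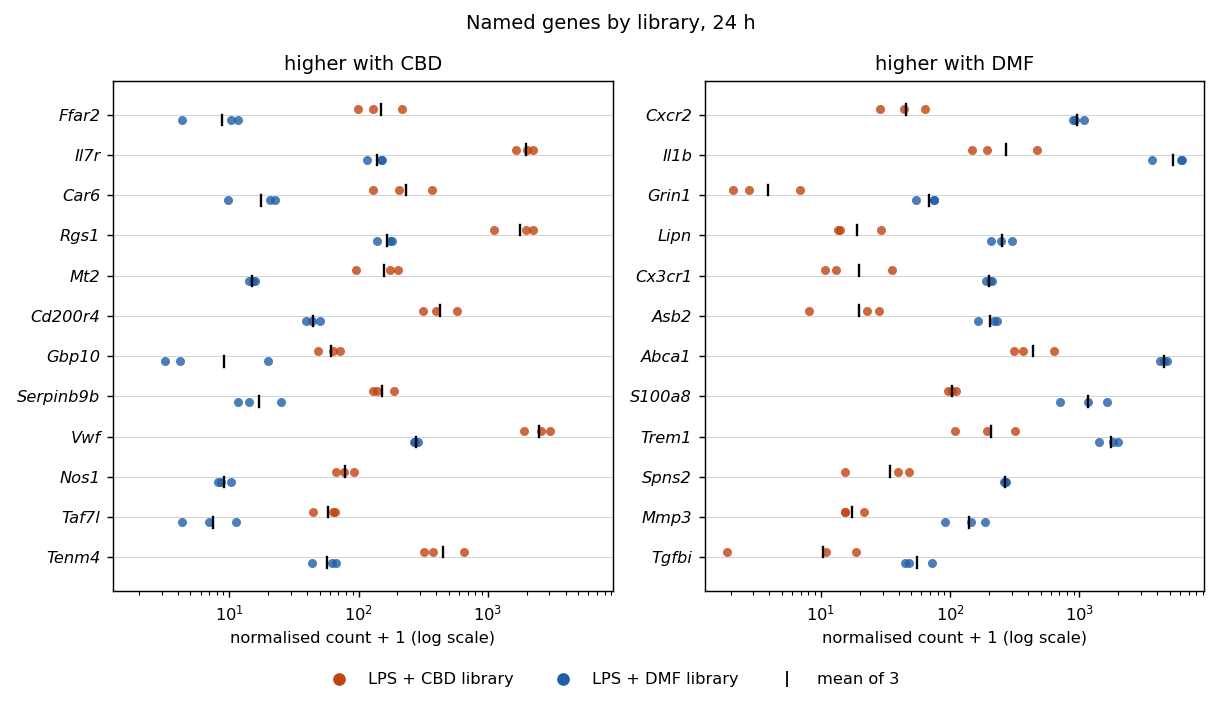
Normalised count + 1 (horizontal axes, log scale) of the 24 genes with the largest changes in each library at 24 h, 3 points for LPS with CBD (orange) and 3 for LPS with DMF (blue) per gene, with black ticks for the means. The groups do not overlap in any of the 24, as the choice of these genes required, and Il1b runs from 147 to 466 with CBD and from 3663 to 6182 with DMF.

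Lysosomal genes were the list with the largest share of members called higher with CBD. Of 27 measured genes of lysosomal enzymes, membrane proteins and the proton pump, 25 were higher with CBD, 1 was lower and 1 was not called, and the median log2 fold change was 0.85. Gpnmb, a glycoprotein of lysosome-rich macrophages, had 7628, 7139 and 7573 with CBD and 1338, 1877 and 1587 with DMF (4.69-fold, log2 fold change 2.23, SE 0.11, adjusted p 5.84e-06). Gla, the lysosomal α-galactosidase whose promoter window opens the set above, had 2846, 2785 and 3182 with CBD and 726, 793 and 772 with DMF (3.84-fold, log2 fold change 1.94, SE 0.08, adjusted p 2.02e-06). Ctsd, the aspartic protease cathepsin D, had 40087, 37393 and 46899.6 with CBD and 14672, 16300.3 and 16663 with DMF (2.60-fold, log2 fold change 1.38, SE 0.10, adjusted p 2.73e-05). In these 3 genes the libraries of each group were close together and every CBD library lay above every DMF library. Similar differences were measured for Psap, the precursor of the saposins (1.4), Ctsb, cathepsin B (1.38), Grn, progranulin (1.35), and Sqstm1, the autophagy receptor p62 (1.23). Among the membrane proteins were the calcium channel Mcoln1 (0.85, adjusted p 9.34e-05), the structural membrane protein Lamp2 (0.56, adjusted p 0.00268) and the proton pump subunits Atp6v1a (0.91, adjusted p 0.000127) and Atp6v1h (0.66, adjusted p 0.000305). The 5 genes with a CLEAR core had log2 fold changes between 0.85 and 1.94. Tfeb, a transcription factor of this programme, was the 1 gene lower with CBD (210.3, 246 and 201 with CBD and 313, 336 and 242 with DMF, -0.43, adjusted p 0.0415), a call that was lost without CBD replicate 1 or 3 or DMF replicate 1 or 2, and with all 18 libraries of 24 h in the fit or the vehicle difference subtracted. Leaving out any 1 library left 24 or 25 genes called higher, and 25 were so with the vehicle difference subtracted.

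Metal genes lay on both sides. Of 10 measured zinc and metal genes, 6 were higher with CBD and 3 lower, with a median of 0.57. Mt1, a metallothionein that binds zinc and copper, had 24618, 20594 and 31013 with CBD and 5539, 5613 and 5647 with DMF (4.47-fold, log2 fold change 2.16, SE 0.13, adjusted p 1.09e-05), and Slc30a1, which exports zinc from the cell, had 1277, 1351 and 1786 with CBD and 690.3, 766 and 771 with DMF (log2 fold change 0.97, SE 0.12, adjusted p 0.000375). Slc39a10, a zinc importer, lay the other way, with 244, 287 and 351 with CBD and 1095, 898 and 956 with DMF (3.36-fold higher with DMF, log2 fold change -1.75, SE 0.14, adjusted p 3.21e-05). The iron genes divided as well, since Slc40a1, the iron exporter ferroportin, was higher with CBD (2209.6, 1823 and 2078 with CBD and 1076, 1115 and 1058 with DMF, 0.91) and Tfrc, the transferrin receptor that imports iron, was lower (4974, 3850.4 and 4587 with CBD and 8319, 7121 and 7444 with DMF, -0.78). Slc11a2, an iron transporter of the endosome, was higher with CBD (0.76). Mt1 and Mt2 are near-identical in parts of their sequence, and reads shared by them could be placed on either.

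Nrf2 target genes had no common direction. Of 24 measured, 8 were higher with CBD, 9 lower and 7 not called (median -0.11). The genes higher with CBD included several of heme and iron handling, while Blvrb, a biliverdin reductase, was lower (-0.60, adjusted p 0.0315). Hmox1, heme oxygenase, had 19016, 17501 and 16476 with CBD and 5661, 8942 and 7777 with DMF (2.41-fold, log2 fold change 1.27, SE 0.15, adjusted p 0.000255), and the ferritin chains Ftl1 (1.11, adjusted p 0.000195) and Fth1 (0.91, adjusted p 0.00104), the heme transporter Slc48a1 (0.79, adjusted p 0.000566), Gstm1, a glutathione transferase (1.25, adjusted p 6.17e-05), and Ephx1, an epoxide hydrolase (1.10, adjusted p 7.61e-05), were also higher. Ftl1 has near-identical copies in the mouse genome, so its count is uncertain. The 9 that were lower with CBD included the pentose phosphate enzyme Pgd (-0.49, adjusted p 0.00897), glutathione reductase Gsr (-0.28, adjusted p 0.0114), thioredoxin Txn1 (-0.27, adjusted p 0.0137) and thioredoxin reductase Txnrd1 (-0.29, adjusted p 0.0105), these 4 by less than 1 on the log2 scale, and Txn1 and Txnrd1 were not called without DMF replicate 3. With the vehicle difference subtracted, Pgd, Gsr and Txnrd1 were not called. The lowest log2 fold change of the list was that of Nqo1, a quinone reductase, with 15.3, 11.8 and 12.5 with CBD and 17.5, 49.0 and 26.7 with DMF (log2 fold change -1.06, SE 0.37, adjusted p 0.0479), whose call was lost without any 1 library apart from DMF replicate 1, without the filter, with all 18 libraries of 24 h and with the vehicle difference subtracted. Srxn1, sulfiredoxin, had 2379, 2058 and 2703 with CBD and 1491, 2186 and 2313 with DMF (0.27, adjusted p 0.211), and Gclm, of glutathione synthesis, had 1897, 1825 and 1999.9 with CBD and 1576, 2043 and 2035 with DMF (0.03, adjusted p 0.86), so that the groups overlapped in both. The count of 8 was the same without each library, while the 9 lower calls became 5 without CBD replicate 3, 4 without DMF replicate 2, 2 without DMF replicate 3 and also 2 with the vehicle difference subtracted.

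Interferon-stimulated genes were higher with CBD or not called. Of 29 measured, 15 were higher with CBD, none was lower, and the median was 0.84, with 28 of 29 log2 fold changes above 0. Rsad2, the antiviral enzyme viperin, had 7369, 16549 and 7283 with CBD and 1759, 3184 and 2390.2 with DMF (4.05-fold, log2 fold change 2.02, SE 0.31, adjusted p 0.00112). Cxcl10, an interferon-induced chemokine, had 719.7, 1621 and 556 with CBD and 208, 370.4 and 281 with DMF (3.10-fold, log2 fold change 1.63, SE 0.35, adjusted p 0.00609). Replicate 2 was the highest library of its group for Rsad2 and Cxcl10 in both treatments, and the groups did not overlap. Oas1a, a sensor that activates RNase L (0.94), Oasl1 (1.0), Mx1, an antiviral GTPase (1.61), Ifit1 (1.15) and the ubiquitin-like Isg15 (0.91) were higher as well, but the last 3 were not called without DMF replicate 1, without DMF replicate 3 or with the vehicle difference subtracted, nor Isg15 without CBD replicate 1. DESeq2 called neither Ifit1 nor Isg15. The count of 15 became 6 without DMF replicate 1, 7 without DMF replicate 3, 8 with the vehicle difference subtracted and 26 with the replicate number as a block. Members of the Oas and Ifit families share sequence, and reads could be split between them.

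Guanylate-binding and immunity-related GTPases, which act against intracellular microbes, were called in 4 of 12, all higher with CBD (median 0.69). That was 33.3% of members, against 38.5% of all genes called either way and 19.3% called higher. Gbp8 had 92.0, 163 and 161 with CBD and 23, 33.5 and 25.1 with DMF (log2 fold change 2.28, SE 0.26, adjusted p 0.00021) and Gbp5 had 60.3, 127 and 34.8 with CBD and 14.2, 23.9 and 27.4 with DMF (log2 fold change 1.57, SE 0.44, adjusted p 0.0193), the latter not called without CBD replicate 1 or DMF replicate 1. Irgm1 had 1633, 2340.2 and 1480.5 with CBD and 1028, 1476 and 1135 with DMF (0.57, adjusted p 0.0303), and its call was lost without CBD replicate 1 or 2 or DMF replicate 1 or 3. Gbp2 had 254, 523 and 176 with CBD and 149, 215 and 205 with DMF (0.61, adjusted p 0.178), where the groups overlapped, and was called with the replicate block (adjusted p 0.0414) and without CBD replicate 3. The 4 calls became 2 without CBD replicate 1, CBD replicate 2 or DMF replicate 1, 9 without CBD replicate 3, 1 with the vehicle difference subtracted and 11 with the replicate block. These genes are near-identical within each family. Of 15 class I presentation genes 6 were higher with CBD and none lower (median 0.32), among them Nlrc5, the transactivator of class I genes (4913, 5797 and 5066 with CBD and 3069, 3686 and 3003 with DMF, log2 fold change 0.70, SE 0.10, adjusted p 0.000684). This count was 3 without DMF replicate 1, and 2 without DMF replicate 3 or with the vehicle difference subtracted.

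Cytokine and inflammatory enzyme genes mostly lay on the side of DMF. Of 19 measured, 10 were lower with CBD, 4 higher and 5 not called (median -0.82). After Il1b, the largest differences in this list were those of Ptgs2, the inducible cyclooxygenase, with 14283, 17494 and 12996 with CBD and 34188, 52571 and 53449 with DMF (3.09-fold higher with DMF, log2 fold change -1.63, SE 0.18, adjusted p 0.000175), and Il1a, interleukin-1α, with 463, 668 and 409 with CBD and 1079.8, 1528 and 1851 with DMF (2.89-fold higher with DMF, log2 fold change -1.53, SE 0.22, adjusted p 0.000706). The lowest DMF library exceeded the highest CBD library in both. Csf3, granulocyte colony-stimulating factor (-1.27), Lif (-1.33), Il18 (-1.10), Tgfb1 (-0.94) and Tnf, tumour necrosis factor (4280.1, 4708 and 3144 with CBD and 6419, 5643 and 6518 with DMF, -0.63, adjusted p 0.00609), were lower with CBD too. Higher with CBD were Il6 (210.3, 212 and 279 with CBD and 114, 114 and 138 with DMF, 0.93, adjusted p 0.00153), Csf1, the microglial growth factor (0.77), Osm, coding for oncostatin M (0.29), and Il1rn, the antagonist of the interleukin-1 receptor (10938, 11246 and 10360.0 with CBD and 5458, 7492 and 7413 with DMF, 0.69, adjusted p 0.0019). With the vehicle difference subtracted, Csf1 was the 1 gene of these 4 that was still called. Nos2, the inducible nitric oxide synthase, had 3251, 5316 and 1624 with CBD and 3810.3, 7961 and 4941 with DMF (-0.81, adjusted p 0.13), with overlapping groups, and was called lower with the replicate block (adjusted p 0.00557) and without CBD replicate 2.

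Chemokine genes went both ways, 6 of 13 higher with CBD and 4 lower (median 0.63). Ccl7, a monocyte attractant, had 5735, 3907 and 4293 with CBD and 833, 871 and 1063 with DMF (4.99-fold, log2 fold change 2.32, SE 0.14, adjusted p 1.22e-05), and its neighbour Ccl2 had 17229, 15836 and 12769.5 with CBD and 5204, 4662 and 6672 with DMF (2.78-fold, log2 fold change 1.48, SE 0.14, adjusted p 0.00011). The chemokines Ccl3 (0.86) and Ccl4 (0.76) were also higher with CBD. Cx3cl1, fractalkine, had 119, 108 and 99.9 with CBD and 653, 662 and 654 with DMF (5.99-fold higher with DMF, log2 fold change -2.58, SE 0.10, adjusted p 2.02e-06), and the 3 DMF libraries were nearly equal. Cxcl3, a ligand of Cxcr2, was lower with CBD (1579, 1476 and 1189.6 with CBD and 2039, 3830.4 and 3306 with DMF, -1.07, adjusted p 0.00343), while Cxcl2, another, had 13767, 15483 and 13415 with CBD and 12716, 21502 and 22370.2 with DMF (-0.37, adjusted p 0.155), with overlapping groups, and was called lower with the replicate block (adjusted p 0.0400), by DESeq2 and without DMF replicate 1.

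Receptors for chemokines and metabolites separated in the same mixed manner, with 6 of 18 higher with CBD and 9 lower (median -0.68). Beside Cxcr2 and Cx3cr1, those lower with CBD included C5ar1, the complement C5a receptor (413, 570.4 and 235 with CBD and 989, 1593 and 1419.7 with DMF, log2 fold change -1.78, SE 0.29, adjusted p 0.0015), Cxcr3, the receptor of Cxcl10 (86.5, 82.3 and 56.2 with CBD and 299.7, 199.5 and 249 with DMF, log2 fold change -1.72, SE 0.20, adjusted p 0.000277), Gpr84, a medium-chain fatty acid receptor (-1.10), and Cnr2, the cannabinoid receptor CB2 (141, 135 and 122 with CBD and 207, 207 and 238 with DMF, -0.70, adjusted p 0.00208). Those higher with CBD, beside Ffar2, included Ccrl2 (814, 1154 and 912 with CBD and 278, 394 and 328 with DMF, log2 fold change 1.52, SE 0.16, adjusted p 0.000129), Cxcr4 (0.94), the ATP-gated channel P2rx7 (0.73) and Ccr1 (0.54), of which Ccr1 was not called with the vehicle difference subtracted. Genes of NF-kB subunits and their feedback inhibitors were called in 40% of members, near the 38.5% of all genes, with 2 of 20 higher and 6 lower, or 3 lower with the vehicle difference subtracted (median -0.11). Rela (2566, 2621 and 2839.6 with CBD and 2559, 3115 and 2835 with DMF, -0.08, adjusted p 0.475), the activating subunit, and Nfkbia (3279, 4795 and 3244 with CBD and 3476, 4933 and 4715 with DMF, -0.22, adjusted p 0.329), its inhibitor, had overlapping groups, Nfkbia being called lower without CBD replicate 2, whereas Nfkbid (-0.91, adjusted p 0.000103) and Tnip3 (-1.06, adjusted p 0.00118) were lower with CBD and Tnfaip3, the deubiquitinase A20 (0.69, adjusted p 0.00415), was higher. Acute-phase genes included 4 of 9 that were higher and 2 that were lower with CBD (median 0.80). Lcn2, the iron-siderophore binder lipocalin-2, had 23099, 31709 and 34070.3 with CBD and 5458, 6950.0 and 7976 with DMF (4.35-fold, log2 fold change 2.12, SE 0.17, adjusted p 3.51e-05), Cp, the copper carrier ceruloplasmin, had 692, 1114 and 953 with CBD and 159, 178 and 131 with DMF (5.81-fold, log2 fold change 2.54, SE 0.18, adjusted p 2.14e-05), and Mmp9, a matrix protease, had 228, 278 and 155 with CBD and 744, 836 and 771 with DMF (3.64-fold higher with DMF, log2 fold change -1.86, SE 0.18, adjusted p 0.00011).

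Genes of microglial identity and survival were more often lower than higher with CBD, 8 against 3 of 16 measured (median -0.43). Csf1r, the receptor for the growth factor Csf1, had 5982, 9466 and 4848 with CBD and 12193, 16272 and 14855 with DMF (2.21-fold higher with DMF, log2 fold change -1.14, SE 0.21, adjusted p 0.00293), and Tmem119, a microglial surface protein, had 83.3, 88.2 and 45.5 with CBD and 154, 235 and 190.5 with DMF (2.72-fold higher with DMF, log2 fold change -1.44, SE 0.26, adjusted p 0.00241). The transcription factor Mef2c (-1.04) and the purine receptors P2ry12 (-0.95) and P2ry13 (-0.99) lay on the same side, while Cd33, a sialic acid receptor (0.71), and the lipid receptor Trem2 (0.56) were higher with CBD. P2ry13 and Trem2 were not called with the vehicle difference subtracted. Fcrls and Sall1 were not analysed here. Tyrobp, the adaptor of Trem2, had 3045, 3865 and 3233 with CBD and 3134, 4268 and 3721 with DMF (-0.13, adjusted p 0.432), with overlapping groups.

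Complement, Fc and scavenger receptor genes had 4 of 15 members higher and 3 lower with CBD (median -0.16), shares of 26.7% and 20% against 19.3% and 19.2% of all genes, the 3 becoming 5 without CBD replicate 2 and 6 with the replicate block, and the 4 becoming 2 with the vehicle difference subtracted. Cd68, a lysosomal membrane protein of macrophages, had 11964, 13549 and 12219 with CBD and 5086, 5326 and 5329.9 with DMF (2.39-fold, log2 fold change 1.26, SE 0.07, adjusted p 1.02e-05), Fcgr1, the high-affinity IgG receptor, was higher with CBD (1.08), and Cd14, the co-receptor for LPS, was lower (-0.57). Activation surface molecules had 3 of 18 higher and 8 lower (median -0.26). Cd274, the checkpoint ligand PD-L1, had 651, 1054 and 828 with CBD and 255, 286 and 298 with DMF (2.96-fold, log2 fold change 1.57, SE 0.16, adjusted p 0.000127), and Cd40 was higher as well (0.58). The costimulatory ligands Icosl (275, 306 and 304 with CBD and 783, 854 and 615 with DMF, log2 fold change -1.33, SE 0.13, adjusted p 8.61e-05) and Cd80 (-0.95), the adhesion molecule Icam1 (-0.94) and its integrin chains Itgal (-1.22) and Itgb2 (-0.99) were higher with DMF.

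**Figure D3:**
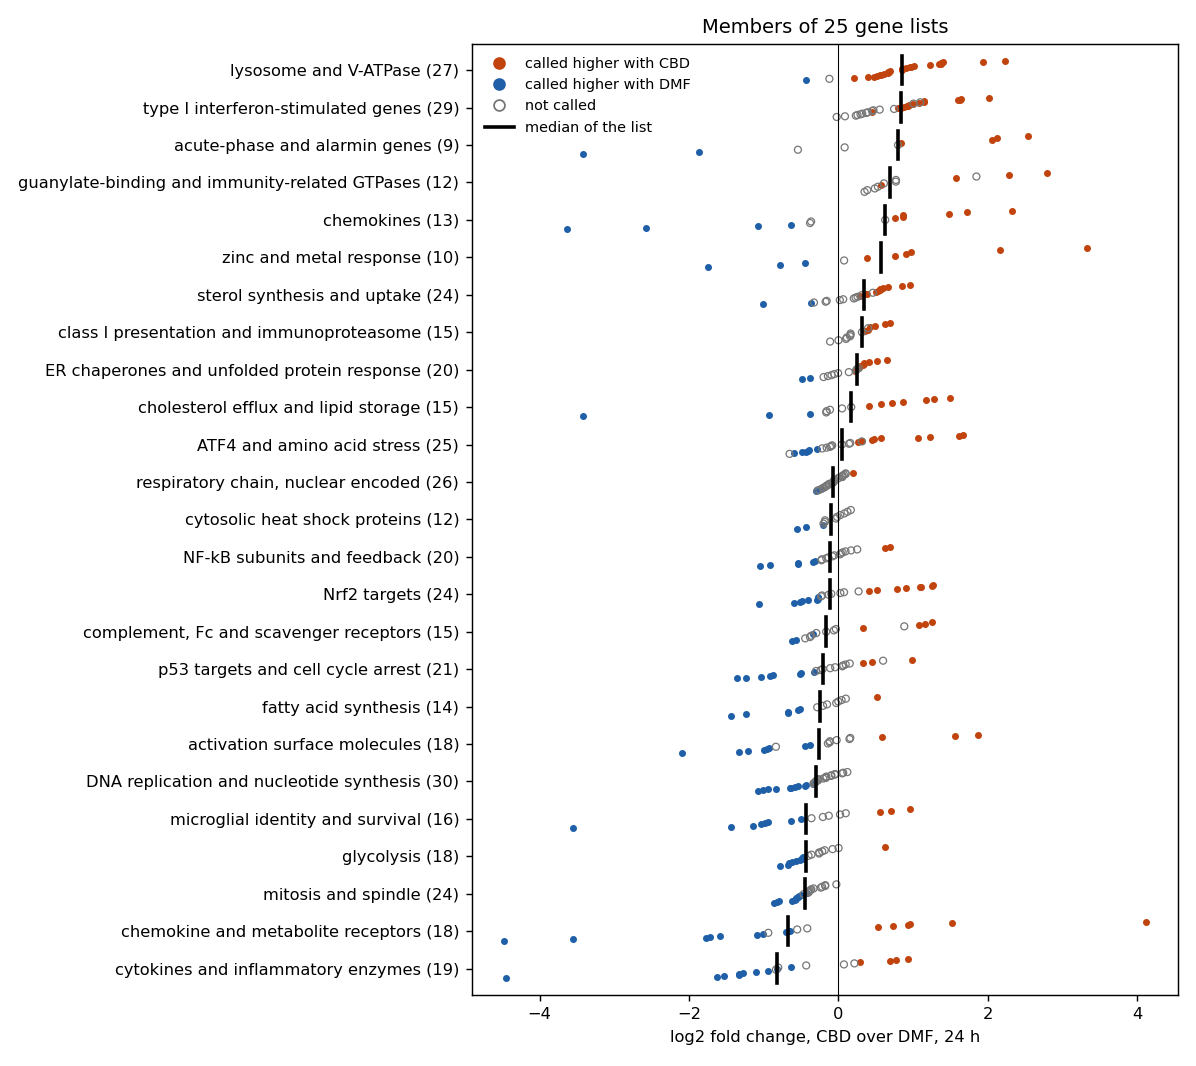
Log2 fold change of CBD over DMF at 24 h (horizontal axis) for each measured member of 25 gene lists, 1 row of points per list with the list median as a black bar; members called higher with CBD are orange, those called higher with DMF blue and the others open grey. Lysosomal genes lie to the right of 0 apart from 2 of 27, and mitotic genes all lie to the left.

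Lipid genes differed by pathway. Of 24 sterol synthesis and uptake genes, 12 were higher with CBD and 2 lower (median 0.34). Insig1, which holds the sterol-sensing complex in the endoplasmic reticulum, had 3411, 4061 and 2802 with CBD and 1855, 1707 and 1659 with DMF (1.95-fold, log2 fold change 0.96, SE 0.12, adjusted p 0.000384), and Fdft1, squalene synthase, had 1239, 1550.3 and 1008 with CBD and 762, 638 and 666 with DMF (1.81-fold, log2 fold change 0.86, SE 0.14, adjusted p 0.00175). The 2 lower calls became 1 without any 1 library apart from CBD replicate 2. The count of 12 became 6 without CBD replicate 1, 7 without CBD replicate 2 or DMF replicate 2, 5 without DMF replicate 3 and 6 with the vehicle difference subtracted. Fatty acid synthesis genes were lower with CBD in 6 of 14 and higher in 1 (median -0.24). Fasn, fatty acid synthase, had 6994, 7082 and 5793 with CBD and 19741, 17151 and 17018 with DMF (2.72-fold higher with DMF, log2 fold change -1.44, SE 0.10, adjusted p 1.95e-05), and its transcription factor gene Srebf1 had 2206, 2129.5 and 1584 with CBD and 4932, 4433 and 4446 with DMF (2.35-fold higher with DMF, log2 fold change -1.24, SE 0.12, adjusted p 0.000103).

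Of 15 genes of cholesterol efflux and lipid storage, 7 were higher and 3 lower with CBD (median 0.17), the 3 becoming 5 without CBD replicate 2. Those higher were led by Plin2, which coats lipid droplets (8230.4, 8036 and 9787 with CBD and 2690.1, 3290.4 and 3282 with DMF, 2.81-fold, log2 fold change 1.49, SE 0.10, adjusted p 2.14e-05), Hilpda, an inhibitor of droplet lipolysis (1.27), and Npc1, which moves cholesterol out of lysosomes (3429, 3592 and 3544 with CBD and 1541, 1617 and 1538 with DMF, 2.25-fold, log2 fold change 1.17, SE 0.06, adjusted p 7.14e-06). The 3 lower were Abca1 (above), Mylip, a ubiquitin ligase (-0.93), and Abcg1 (-0.38), whose call was lost without CBD replicate 1 or 3, without DMF replicate 2 or 3 and with the vehicle difference subtracted.

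Stress genes also differed within each list. Of 25 genes of the ATF4 and amino acid response, 9 were higher and 6 lower with CBD (median 0.05), the 6 becoming 3 without DMF replicate 3 or with the vehicle difference subtracted. The stress factors Atf3 (9683, 10358 and 12202 with CBD and 2627, 3838 and 3789.5 with DMF, 3.18-fold, log2 fold change 1.67, SE 0.15, adjusted p 6.31e-05) and Ddit3, coding for CHOP (2646, 2697 and 3969 with CBD and 833, 1048 and 1118 with DMF, 3.07-fold, log2 fold change 1.62, SE 0.16, adjusted p 0.000122), the phosphatase subunit Ppp1r15a (1.06) and the amino acid transporter chain Slc3a2 (1.22) were higher with CBD, and Sesn2, an inhibitor of mTORC1, was lower (-0.59, adjusted p 0.000536). Slc7a11, the cystine transporter of this and the Nrf2 list, had 5188, 5864 and 6979.5 with CBD and 5406, 7802 and 7933 with DMF (-0.22, adjusted p 0.292), with overlapping groups, and was called lower with the replicate block (adjusted p 0.0338) and without DMF replicate 1. Of 20 genes of chaperones of the endoplasmic reticulum and the unfolded protein response, 9 were higher and 2 lower (median 0.24), among them the calcium-binding chaperone Calr (0.52, adjusted p 0.00524) and, on the other side, Herpud1 (-0.49, adjusted p 0.00699), and the 9 became 4 without DMF replicate 1. The 2 lower calls became 1 without CBD replicate 1 or 3, without DMF replicate 2 or 3 and with the vehicle difference subtracted, where Herpud1 was the one lost. Of 12 cytosolic heat shock genes, 3 were lower with CBD, 6 with the replicate block, and none was higher (median -0.11), the largest difference being that of the co-chaperone Bag3 (-0.56, adjusted p 0.000927).

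Glycolysis genes were lower with CBD in 9 of 18 and higher in 1 (median -0.44). Pkm, pyruvate kinase, had 87099, 84539 and 66331 with CBD and 118919, 130266 and 125102 with DMF (log2 fold change -0.66, SE 0.13, adjusted p 0.00375), and Gpi1, glucose-6-phosphate isomerase, had 31691, 36511 and 22159 with CBD and 48035, 56398 and 47876 with DMF (log2 fold change -0.78, SE 0.17, adjusted p 0.00622). Pfkfb3, which makes an activator of phosphofructokinase, was the 1 gene higher with CBD (0.63, adjusted p 0.000873), and Ldha, lactate dehydrogenase, had 42854, 38604 and 29408 with CBD and 46391, 46670.3 and 47654 with DMF (-0.36, adjusted p 0.0572), and was called lower with the replicate block (adjusted p 0.0253), by DESeq2, with all 18 libraries and without CBD replicate 1. The 9 lower calls became 5 without DMF replicate 2 and 4 with the vehicle difference subtracted. Of 26 nuclear-encoded genes of the respiratory chain, 1 was higher and 2 were lower with CBD (median -0.07), with 5 lower under the replicate block. The 1 higher call was lost without every single library apart from CBD replicate 3, and the 2 lower calls became 1 without CBD replicate 2, DMF replicate 1 or DMF replicate 3. The share of mitochondrially encoded reads, given above, was lower in the CBD libraries.

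Proliferation genes were lower with CBD where they were called. In mitosis and spindle genes this was so for 12 of 24 (median -0.45, all 24 log2 fold changes below 0), and in DNA replication and nucleotide synthesis for 11 of 30 (median -0.30), with none higher in either list. Mki67, the proliferation antigen Ki-67, had 3810.1, 3139 and 2848 with CBD and 7251, 5216 and 5019 with DMF (log2 fold change -0.83, SE 0.15, adjusted p 0.00247), Cdc6, which loads the replicative helicase, had 244, 216 and 193 with CBD and 454, 438 and 425 with DMF (log2 fold change -1.02, SE 0.11, adjusted p 0.000176), and Ccne1, cyclin E1, had 409, 311 and 299.8 with CBD and 835, 587 and 734 with DMF (log2 fold change -1.08, SE 0.15, adjusted p 0.000787). DMF replicate 1 was the highest library of these 3 genes, and every CBD library was below every DMF library. Ccnb2 was lower with CBD (-0.50), but not without CBD replicate 2 or 3 or DMF replicate 1 or 3. The 12 mitotic calls became 5 without CBD replicate 3, 4 without DMF replicate 1, 6 without DMF replicate 3 and, under the block, 21, and the 11 replication calls became 18 with the block and 6 with the vehicle difference subtracted. The list of p53 targets and arrest genes also held the D-type cyclins, which are not arrest genes, so its counts mix both kinds. In this list, 3 of 21 were higher with CBD and 8 lower (median -0.21), including all 3 D-type cyclins, Ccnd1 (4289, 3344 and 2359.5 with CBD and 10068, 6826 and 8289 with DMF, 2.56-fold higher with DMF, log2 fold change -1.36, SE 0.20, adjusted p 0.001), Ccnd2 (-1.24) and Ccnd3 (-1.03). Cdkn1a, the arrest protein p21, was lower with CBD too (-0.50, adjusted p 0.0111), while the stress cytokine Gdf15 was higher (0.98, adjusted p 0.000955).

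Each drug was also set against LPS alone at 24 h. Both drugs were set against the same LPS group though their vehicles differed. These comparisons can therefore also hold a change of vehicle, whose part was not tested. CBD with LPS differed from LPS in 5687 of 11671 genes (48.7%), 2792 higher and 2895 lower. DMF with LPS differed from LPS in 2926 of 11670 (25.1%), 1390 higher and 1536 lower. The count for DMF was 1738 without DMF replicate 2, 1322 without DMF replicate 3, 1614 without LPS replicate 3, and, with the replicate block, 4566. Both comparisons used the same 3 LPS libraries, so their values are given side by side and no overlap is read from them. Of the 12 named genes higher with CBD, 12 were called against LPS with CBD and 2 with DMF, Tenm4 (higher, 2.46) and Il7r (lower, -0.52), where Ffar2, Nos1 and Taf7l were not tested. Of the 12 named genes higher with DMF, 10 were called against LPS with CBD, all lower, and 9 with DMF, all higher. The named genes were picked for their difference between these same CBD and DMF libraries, so calls in these directions were favoured by the choice.

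Levels across groups are on a joint scale set over the 24 libraries read. Il1b was 2653 ± 614 with LPS alone, 5144 ± 1369 with DMF and 260.2 ± 167 with CBD (mean ± SD, n = 3 libraries), and 42.5 ± 22.2 and 37.3 ± 17.4 in the DMSO and EtOH vehicles without LPS. It was thus above LPS with DMF (log2 fold change 0.93, adjusted p 0.00775) and below LPS with CBD (-3.50, 6.04e-05), and the other pairs of values in parentheses are the same quantities, from limma. Ptgs2 lay the same way, at 24584 ± 7745 with LPS, 45356 ± 10469 with DMF (0.89, 0.0136) and 14503 ± 2204 with CBD (-0.73, 0.0132). Abca1 was 1729 ± 294 with LPS, 4366 ± 280.0 with DMF (1.34, 4.85e-05) and 425 ± 166 with CBD (-2.08, 9.76e-05), so that these 3 genes moved in opposite directions from LPS. Cxcr2 was 609 ± 61.3 with LPS and 741 ± 64.0 in DMSO without it, 934 ± 93.7 with DMF and 43.1 ± 17.0 with CBD, a level below that of each of these groups and of EtOH (697 ± 94.0).

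Other genes lay far from LPS with CBD and nearer to it with DMF. Ctsd was 13145 ± 174 with LPS, 15414 ± 1004 with DMF (0.22, 0.0493) and 40302 ± 4785 with CBD (1.61, 6.43e-06). Mt1 was 4193 ± 457 with LPS, 5436 ± 51.9 with DMF (0.37, 0.0114) and 24702 ± 5128 with CBD (2.54, 4.10e-06). Hmox1 was 6372 ± 1148 with LPS, 7238 ± 1588 with DMF (0.17, 0.475) and 17173 ± 1306 with CBD (1.44, 2.96e-05). Across lists, lysosomal genes were called higher than LPS in 24 of 27 with CBD and 8 with DMF (lower in 1 and 2), and interferon-stimulated genes were higher in 24 of 29 with CBD and 5 with DMF, with none lower. Over all genes tested, 2792 of 11671 were higher than LPS with CBD and 1390 of 11670 with DMF. Ccl7 was higher than LPS with both (3.48 with CBD and 1.15 with DMF).

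Some lists were called against LPS mostly in 1 direction with both drugs. Sterol genes were lower than LPS in 22 of 24 with CBD and 24 with DMF (medians -1.11 and -1.46), and the genes that were higher with CBD than with DMF were below LPS with both drugs except Sc5d, which was not called against LPS with CBD (-0.31, adjusted p 0.103). An example is Hmgcs1, at 3281 ± 45.4 with LPS, 959 ± 65.8 with DMF and 1245 ± 201 with CBD. Mitotic genes were lower than LPS in 24 of 24 with either drug (medians -1.19 with CBD and -0.77 with DMF), and replication genes in 29 of 30 with CBD and 23 with DMF. Genes of the ATF4 response were higher than LPS in 17 of 25 with CBD and 16 with DMF, and Nrf2 targets in 13 of 24 with CBD and 11 with DMF, with 2 lower in each. Cytokine genes were higher than LPS in 7 of 19 and lower in 8 with CBD, and higher in 11 and lower in 1 with DMF. Glycolysis genes were lower in 14 of 18 with CBD and 4 with DMF. Beside these lists stand 2895 of 11671 genes lower than LPS with CBD and 1536 of 11670 with DMF, and 2792 and 1390 higher.

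**Figure D4:**
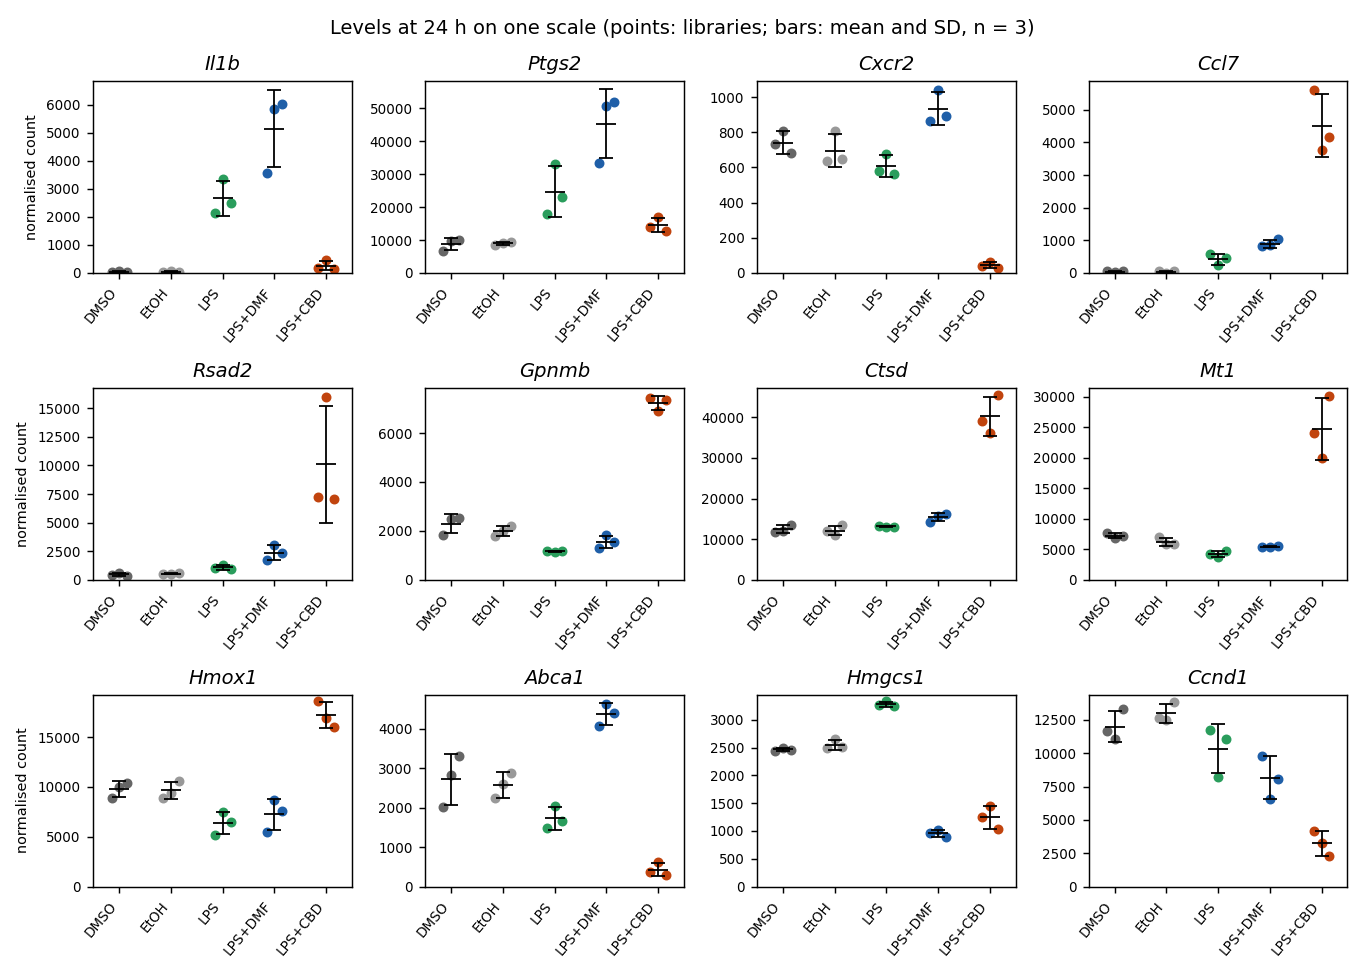
Normalised count on the joint scale (vertical axes, linear from 0) of 12 genes in DMSO, EtOH, LPS, LPS with DMF and LPS with CBD at 24 h, with 3 points per group and black bars for the mean and SD. Il1b, Ptgs2, Cxcr2 and Abca1 are lowest with CBD and highest with DMF among the LPS groups, Ctsd and Mt1 stand out with CBD, and Hmgcs1 is below LPS with both drugs.

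The same pair of drugs at 4 h gave the earlier values of these genes. CBD and DMF differed in 1770 of 11409 genes at 4 h (15.5%), 1033 higher with CBD and 737 lower, and this count was 1066, 1020 and 862 without CBD replicate 1, 2 or 3 and 907 without DMF replicate 3. The test of the difference between the times, an interaction term over the 12 libraries, called 3355 of 12035 genes (27.9%), 1696 shifted towards CBD from 4 h to 24 h and 1659 towards DMF. Of the 24 named genes 18 were tested at 4 h, of which 18 differed between times and 6 were called at 4 h. Ffar2, Car6, Gbp10, Nos1, Taf7l and Tenm4 had too few reads at 4 h to be tested there. The interaction term was still fitted for them. It was called for Ffar2 (2.56, adjusted p 0.0119), Car6 (2.03, 0.0450), Nos1 (3.12, 0.000617), Taf7l (2.48, 0.00599) and Tenm4 (3.57, 6.27e-05). For Gbp10 it was not called (0.95, 0.515). In 4 of the 6 genes called at 4 h, the direction there was the opposite one. Il1b was 2560.3 ± 1303 with CBD and 362 ± 417 with DMF at 4 h on the joint scale (log2 fold change 3.41, adjusted p 0.012; difference between times -7.83, adjusted p 2.74e-05). Asb2, a subunit of a ubiquitin ligase, was 4.88 at 4 h (difference -8.41, adjusted p 7.46e-07), Cx3cr1 was 1.81 (difference -5.34, adjusted p 4.02e-06), and Trem1 was 0.79 (difference -3.95, adjusted p 1.25e-05). Rgs1 and Mt2 were higher with CBD at both times, by 1.11 and 1.71 at 4 h.

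By list, the lysosomal genes had a median of -0.11 at 4 h, with 0 called higher with CBD and 4 lower, against 0.85 at 24 h. Sqstm1 was lower with CBD at 4 h (-1.38, adjusted p 2.47e-05). Nrf2 targets had a median of -1.32 at 4 h, with 21 of 24 lower with CBD and 0 higher, against -0.11 at 24 h. Hmox1 was among them (-3.50, adjusted p 1.03e-06), as was Srxn1 (-3.38, adjusted p 2.00e-07), and the iron exporter gene Slc40a1 of the metal list was lower too (-3.50, adjusted p 2.79e-06). Cytokine genes had a median of 1.20 at 4 h, with 11 higher with CBD and 1 lower, against -0.82 at 24 h, the 1 lower gene being Ptgs2 (-0.76, adjusted p 0.0147). Tnf was higher with CBD at 4 h (1.37, adjusted p 0.000414), and so was Il1a (2.50, adjusted p 0.00376). Interferon-stimulated genes lay on the CBD side at both times, with 27 higher and 0 lower at 4 h (median 1.91), as did the GTPases, with 10 higher (median 2.44). Ccnd1 was higher with CBD at 4 h (0.94, adjusted p 0.000103) and lower at 24 h. The differences between times were tested for the 24 named genes and in the count over all genes, and not by list.

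**Figure D5:**
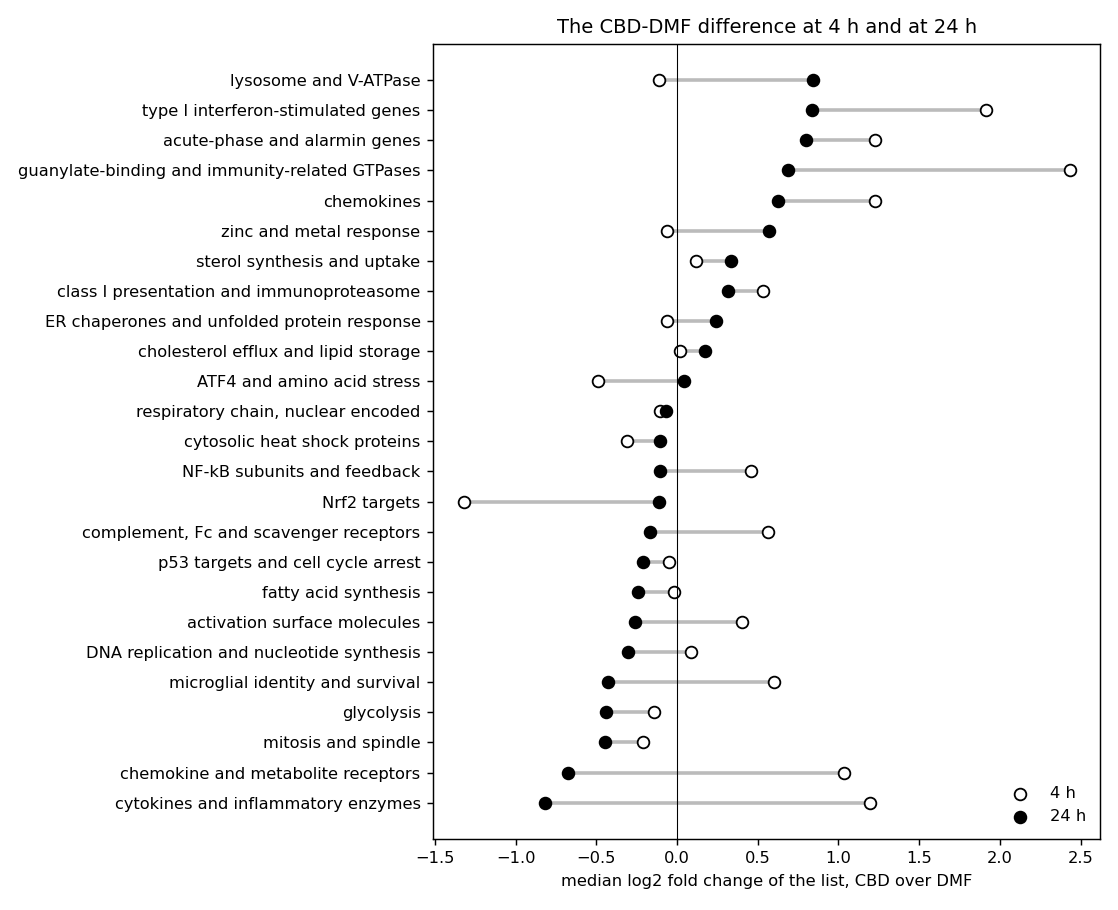
Median log2 fold change of CBD over DMF (horizontal axis) of the measured members of 25 gene lists at 4 h (open circles) and at 24 h (filled circles). Cytokine genes move from 1.20 to -0.82, Nrf2 targets from -1.32 to -0.11 and lysosomal genes from -0.11 to 0.85.

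The vehicles were compared without LPS as the background of these differences. EtOH and DMSO at 24 h differed in 1 of 11715 genes (0.00854%), with 430 at an unadjusted p below 0.05, while edgeR called 1, DESeq2 3 and the fit with the replicate block 20. The 1 gene, named after its value was seen, was Lars2, a mitochondrial leucyl-tRNA synthetase, at 3414, 4475 and 4176 with DMSO and 9549, 7946 and 9914 with EtOH (log2 fold change 1.19, SE 0.11, adjusted p 0.00265). Between the drugs Lars2 was not called (5647, 3049 and 7397 with CBD and 4678, 6071 and 4911 with DMF, -0.04, adjusted p 0.913), and with the vehicle difference subtracted it was lower with CBD (-1.23, adjusted p 0.0148). Subtracting the difference between the vehicles from that between the drugs, in 12 libraries, left 2817 genes called, 1424 higher with CBD and 1393 lower, and the vehicles were not measured together with LPS in the libraries read here. This subtraction adds the spread of the vehicle libraries to every estimate, so fewer calls do not by themselves show an effect of the vehicle.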

How the data were processed

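RNA of BV-2 cells was sequenced by the authors in 3 libraries per group, which the labels give as 3 independent experiments. Per the labels and the study's methods, reads were trimmed (cutadapt 4.4, Trimmomatic 0.39), aligned (HISAT2 2.2.1), counted per gene (HTSeq 2.0.3) and normalised for each pair of groups by DESeq2 1.40.2. The deposited values are this normalised signal per gene and library, that is, counts divided by a size factor, and genes are named by Ensembl ID and symbol as in the files. Whether strand was used in counting is not given in the sources used here, and so overlapping and antisense genes could not be judged. Columns holding the authors' own comparisons (mean, fold change, its error, test statistic, p-values and direction) were not used. Of the deposited pairwise files, 7 were read and 23 were not.

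Whole reads were recovered for 100% of 736116 values (within 0.01 of a read), and 306705 values shared between tables all matched. Totals over the 24 libraries read were 14110424 to 26676607 reads, and libraries of a group differed beyond sampling noise (chi-square per degree of freedom of 4.86 or more). Each pair of groups was fitted alone with limma 3.58.1 (R 4.3.3; empirical Bayes with trend) on log2(normalised count + 1), for genes at 10 or more in at least 3 libraries, and a gene was called where its p, adjusted by Benjamini-Hochberg, was below 0.05. The script was tested on simulated data. The difference between times used the recovered reads on a median-of-ratios scale over its 12 libraries. The levels across groups used a joint scale of the same kind over the 24 libraries read. Same-numbered CBD and DMF libraries deviated together at 24 h (r = 0.379, 0.437 and 0.180 over 10194 genes), as did those of every other comparison (every r above 0.1). Differently numbered ones had r from -0.383 to 0.0351 in CBD against DMF at 24 h. Elsewhere some matched the same-numbered ones, such as CBD 3 with LPS 1 (0.173, against 0.126 for CBD 3 with LPS 3). Pairing by number is thus likely but not shown for every number, and a fit with the number as a block was run as an alternative.

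Named genes were the 12 called genes with the largest change in each direction, at a mean of 50 or more in the higher group, without overlap, protein coding, with a symbol neither of the Gm nor of the Rik kind. The other genes come from 25 lists of 520 genes, 517 of them in the files, 471 tested and 264 called, and 12 genes, mostly uncalled list members, were chosen for the text after their values were seen. The members and lists were chosen with earlier results of these data known. Alternatives were pseudocounts of 0.5 and 5, no filter, a mean of at least 50, edgeR 4.0.16 and DESeq2 1.42.0 on recovered reads, TMM scaling, a log2 fold change limit of 1, the replicate block, leaving out each library, all 18 libraries of 24 h, and subtraction of the vehicle difference. Some list members are not reported here. Promoters are those of RefSeq, GRCm38.p6.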

Additional observations from a re-analysis of the deposited data

Results flagged for a closer look

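For all 18 named genes that were also tested at 4 h the difference between CBD and DMF was not the same at 24 h as at 4 h, by the interaction term of limma over 12 libraries (adjusted p below 0.05; 27.9% of all genes tested passed). Values are the log2 difference between the drugs at 24 h minus that at 4 h. Among the genes higher with CBD at 24 h, the shift was towards CBD and was 4.59 for Il7r, 3.56 for Serpinb9b, 3.54 for Cd200r4, 3.49 for Vwf, 2.29 for Rgs1 and 1.62 for Mt2. Among those higher with DMF, the shift was -8.41 for Asb2, -7.83 for Il1b, -5.34 for Cx3cr1, -4.46 for Cxcr2, -4.05 for Mmp3, -3.95 for Trem1, -3.78 for Abca1, -3.65 for Lipn, -3.60 for Grin1, -3.40 for Tgfbi, -2.92 for S100a8 and -2.85 for Spns2. These genes were named for their change at 24 h, so a shift in that direction was favoured by the choice. Values of the named genes too low at 4 h to be tested there are given above. Of those, Gbp10 was not called by the interaction term (0.95, adjusted p 0.515).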

How the results depend on the processing

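At 24 h, CBD against DMF gave 4185 to 5579 called genes under 9 alternatives against 4523, with 2817 when the vehicle difference was subtracted, 828 with a log2 fold change limit of 1, and 3254 to 4363 without single libraries. At 4 h the count was 463 with that limit and 862 to 2023 without single libraries, and for the difference between times 1232 with the limit and 2700 to 3594 without single libraries. CBD against LPS gave 1202 with the limit and 4313 to 5418 without single libraries, and DMF against LPS 323 with the limit, 4566 with the replicate block and 1322 to 3348 without single libraries. EtOH against DMSO gave 3 with DESeq2, 20 with the replicate block and 1 without each library. All 397 refits in which a named gene was tested kept direction and call, which the choice of these genes favoured. Of the 264 list calls, 160 passed in every alternative but the fold limit, 79 were lost without at least 1 library, and 182 passed with the vehicle difference subtracted. The replicate block lost none of the calls and, beyond those given with its adjusted p beside them and the list counts above, changed no other call among the genes described. Sign changes among the genes described occurred in uncalled ones, Lars2 (0.040 with edgeR, 0.037 with DESeq2, -0.32 to 0.32 without single libraries), Gclm (-0.097 to 0.090 without single libraries) and Rela (0.036 with the vehicle difference subtracted). Cause was not tested for any of these changes, apart from the fold limit and the left-out libraries, which by construction leave fewer genes or samples. The vehicle subtraction by construction adds the spread of the vehicle libraries to each estimate. A call lost there therefore does not by itself show an effect of the vehicle. With 3 libraries a group, small differences and genes with few reads are the least certain, and the vehicles were measured without LPS and in experiments numbered apart from the drug groups.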
